A study of Mus musculus with 20 samples.

Results

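The RNA levels of 10 genes that mark synovial fibroblasts and their subsets were followed in mouse knee joints: Pdgfra, Pdgfrb, Thy1, Cd248, Pi16, Dpp4, Fap, Twist1, Prrx1 and Clic5. They were taken by gene symbol from the deposited table, which held all 10 of them among 14793 genes. The joints came from male C57BL/6Nci mice aged 12 weeks with surgical destabilization of the medial meniscus in the right knee, a model of post-traumatic osteoarthritis that all 4 groups shared. In weeks 3 and 5 after surgery the knee received a needle insertion alone (control), mesenchymal stromal cells from adipose tissue (MSC), the same cells exposed to the TLR3 agonist polyinosinic-polycytidylic acid (TLR3-MSC), or the same cells exposed to the STING agonist 2′3′-cGAMP (STING-MSC). Each group had 10 mice in the study and 5 sequenced joints, each from a different mouse. Control joints received no vehicle, so cell treatment cannot be told apart from injected fluid.

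The injected cells were grown from pooled fat of age-matched male mice of the same strain and were positive for CD90, the protein product of Thy1. Reads from donor cells and from host fibroblasts therefore cannot be told apart. RNA was taken from the minced whole joint, with cartilage, synovium, capsule and adjacent bone together. A lower level of a gene in such bulk RNA can come from fewer cells of a type or from less RNA per cell, and these cannot be told apart. The study's methods and its results give different times of tissue collection, so the interval between the last injection and sampling is uncertain.

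Synovial fibroblasts form a thin lining layer that secretes lubricin and hyaluronan into the joint, and a deeper sublining that surrounds vessels, nerves and fat. PDGFRα and PDGFRβ are receptor tyrosine kinases for the platelet-derived growth factors, with PDGFRβ also prominent in the mural cells of vessels. THY1 (CD90) and the membrane glycoprotein endosialin, encoded by Cd248, mark sublining and perivascular fibroblasts, while CLIC5, a chloride intracellular channel protein linked to the actin cytoskeleton, is used as a marker of the lining. PI16, a secreted and membrane-bound peptidase inhibitor, and the serine exopeptidase DPP4 mark an adventitial fibroblast population found in many tissues. FAP is a membrane serine protease closely related to DPP4 and typical of activated fibroblasts in arthritis, tumours and wounds. TWIST1 and PRRX1 are transcription factors of limb and craniofacial mesenchyme. Several of these genes are also used by other cells of the joint, such as DPP4 by T cells and epithelia and THY1 by neurons.

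The sequence upstream of the start site differed in kind among these genes, and 3 windows are shown. Fap and Cd248 stand for the genes that varied together over the joints, and Pi16 for those outside that pattern, as described further on. Each window holds the 250 bases before the start of the gene's canonical transcript in GENCODE vM39, read from GRCm39 on the gene's strand and written 5′ to 3′. Capitals mark the E-box letters CANNTG, the core that basic helix-loop-helix factors such as TWIST1 bind, and the letters TATAAA, searched on both strands. The Fap window is chr2:62404420-62404669 on the minus strand, the Cd248 window chr19:5117856-5118105 on the plus strand and the Pi16 window chr17:29536404-29536653 on the plus strand.
Fap: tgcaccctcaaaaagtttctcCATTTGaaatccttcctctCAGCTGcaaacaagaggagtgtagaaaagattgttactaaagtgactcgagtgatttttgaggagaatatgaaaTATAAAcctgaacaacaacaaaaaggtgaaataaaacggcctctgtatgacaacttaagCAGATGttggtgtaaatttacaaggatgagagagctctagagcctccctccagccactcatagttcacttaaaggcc
Cd248: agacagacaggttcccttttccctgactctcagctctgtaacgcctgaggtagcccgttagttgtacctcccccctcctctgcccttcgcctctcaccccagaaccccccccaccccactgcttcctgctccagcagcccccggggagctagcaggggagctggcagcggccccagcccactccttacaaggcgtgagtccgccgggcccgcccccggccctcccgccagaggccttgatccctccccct
Pi16: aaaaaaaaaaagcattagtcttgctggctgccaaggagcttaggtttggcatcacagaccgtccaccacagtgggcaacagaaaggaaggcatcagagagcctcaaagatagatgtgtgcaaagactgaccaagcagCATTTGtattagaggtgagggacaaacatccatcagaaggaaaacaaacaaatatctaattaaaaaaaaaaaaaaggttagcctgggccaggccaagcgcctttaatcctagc
The Fap window held 3 E-boxes and a match to the TATA letters, and its GC content was 39.6%. The Cd248 window held neither, at a GC content of 68.0% with 11 CpG dinucleotides. The Pi16 window held 1 E-box, at a GC content of 43.2%. An E-box was found in the windows of 5 of the 10 genes (Pdgfra, Pi16, Dpp4, Fap and Clic5) and in 61.2% of the windows of 14770 genes, so its presence did not set these genes apart. TATAAA was found in the windows of Dpp4, Fap and Twist1 and in 7.98% of all windows, and the GC box GGGCGG in those of Cd248 and Twist1 and in 46.5% of all windows. A match of letters is a description of the sequence and says nothing of binding.

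Each joint had from 27955496 to 52529972 reads on the genes of the table. Counting error was small for the 10 genes, since their lowest value in any joint was 263 normalized counts (Twist1 in STING-MSC replicate 5). Normalized counts are read counts divided by a size factor for each joint. No label gave a sequencing batch. MSC replicate 4 was the lowest joint of its group for 10 of the 10 genes, and STING-MSC replicate 5 the lowest of its group for 8. Markers of many other cell types were abundant in every joint, among them skeletal muscle, with a summed level of its 8 markers from 790450 to 3250130 normalized counts, and erythroid cells, from 900177 to 1937260.

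Per kilobase of the canonical transcript, Fap, Cd248 and Clic5 were the most highly expressed of the 10. Their mean levels over the 20 joints were 1405, 1336 and 1258 normalized counts per kilobase, and 12.5% of all genes lay above the level of Clic5. Thy1 (653), Pi16 (643), Pdgfra (493), Pdgfrb (445), Prrx1 (437) and Twist1 (346) followed. All of these lay above the median of all genes, 243 per kilobase. Dpp4, with 157 per kilobase, lay below it. With the length of all annotated exons in place of the canonical transcript, the order began with Cd248, Clic5 and Fap, while Dpp4 remained last.

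The main result was that Fap, Twist1, Prrx1 and Pdgfrb lay lower in STING-MSC than in control joints at an unadjusted limma p of at most 0.05, but no difference of any of the 10 genes passed an adjustment over all 14793 genes. A gene passed the test at a false discovery rate (FDR, Benjamini-Hochberg over all genes) of at most 0.05. Over 6 comparisons of 2 groups, 0 of 60 tests passed in limma, and the smallest FDR was 0.33 (Fap, STING-MSC against control). Of all genes, 1 passed in limma in MSC against control and 0 in each other comparison. Missing the threshold in limma therefore did not set the 10 genes apart. In edgeR and DESeq2 on the recovered reads 0 of 60 passed as well. The smallest FDR values were 0.28 and 0.076, for Fap in STING-MSC against control. In that comparison 0 of all genes passed in edgeR and 85 in DESeq2. At an unadjusted p of at most 0.05, 7 of the 60 tests were reached in limma.

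Against control, STING-MSC joints had 4 of the 10 genes lower and 0 higher at that unadjusted threshold, where 12.2% of all genes reached it in either direction and 5.69% did so as lower. After subtraction of group means, these 4 genes correlated with each other over the joints (Pearson r from 0.51 to 0.90). The count is therefore not of independent genes. The direction was lower for 7 of the 10 genes and higher for Pi16, Dpp4 and Clic5. The median log2 fold change of the 10 genes was -0.59, and that of all genes 0.0078. TLR3-MSC joints had 2 of the 10 genes higher than control (Clic5 and Pi16) and 0 lower, beside 3.58% of all genes in either direction and 2.68% higher. Non-activated MSC joints had 0 of the 10 at the threshold against control, beside 8.55% of all genes, 5.64% higher and 2.91% lower. These 3 comparisons share the control joints.

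**Figure D1:**
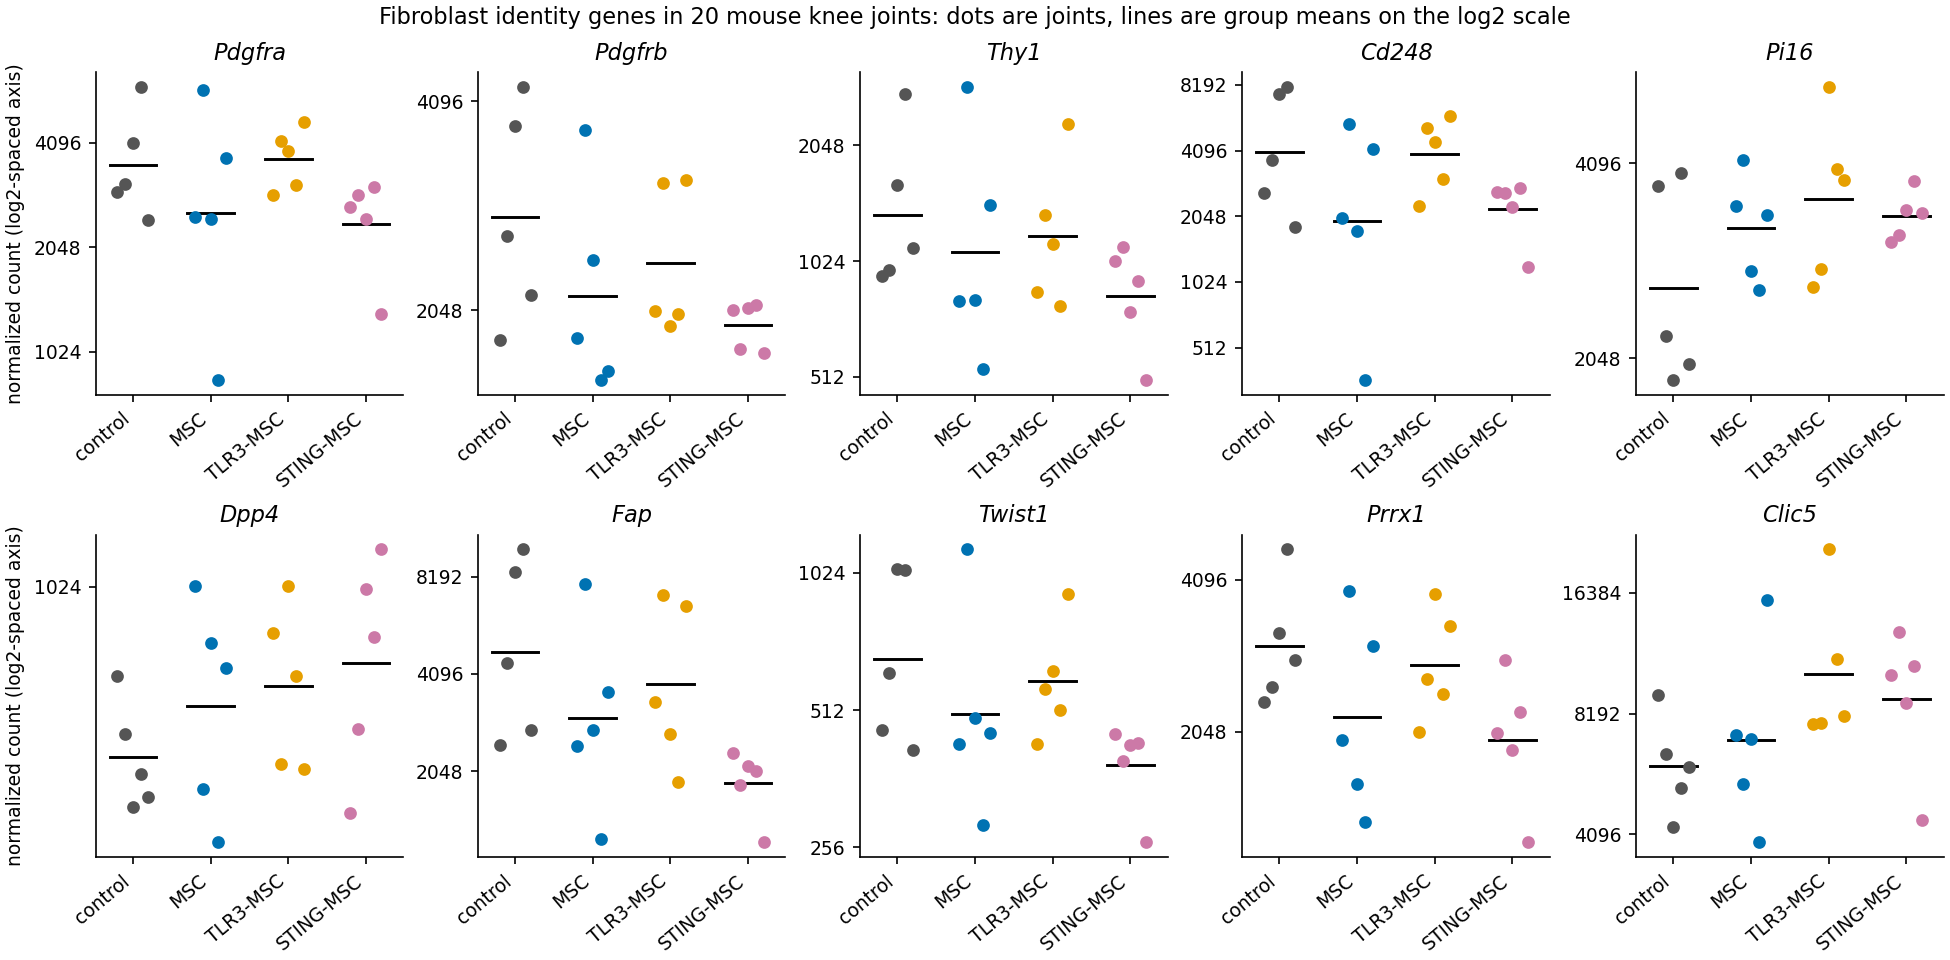
Normalized counts of the 10 genes in each of 20 joints, on log2-spaced axes that differ between panels; dots are joints (5 per group) and lines are group means on the log2 scale. All 5 STING-MSC joints lie below all 5 control joints for Fap, and for the other 9 genes the groups overlap.

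Fap showed the largest difference. Its level in control joints 1 to 5 was 2476, 4419, 8454, 9976 and 2748 normalized counts. In STING-MSC joints 1 to 5 it was 2337, 1856, 2120, 2048 and 1234. Every STING-MSC joint thus lay below the lowest control joint, although the highest of them was close to it, and replicates 3 and 4 carried the high control mean. Such a full separation downwards was seen for 1.24% of all genes in this comparison. The means were 5615 ± 3412 (SD, n = 5) in control and 1919 ± 420 (SD, n = 5) in STING-MSC, a ratio of 0.342. The log2 fold change was -1.35 with a standard error of 0.47 (unadjusted limma p = 0.0096, FDR = 0.33), and the two-sided exact permutation test gave p = 0.0079, the smallest that 5 joints against 5 can give.

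In MSC joints 1 to 5 Fap was at 2452, 7772, 2737, 1259 and 3613 normalized counts. In TLR3-MSC joints 1 to 5 it was at 3352, 7188, 2672, 1891 and 6672. Both groups overlapped the ranges of control and of STING-MSC joints. STING-MSC was lower than TLR3-MSC by a log2 fold change of -1.03 ± 0.47 (SE, unadjusted limma p = 0.042, FDR = 0.89, exact permutation p = 0.032), the only 1 of the 10 genes at the unadjusted threshold in that comparison, beside 2.57% of all genes in either direction, 0.784% higher and 1.78% lower. Without TLR3-MSC replicate 2 or 5, or STING-MSC replicate 3, 4 or 5, that count was 0, and without TLR3-MSC replicate 1 or STING-MSC replicate 2 it was 1 with another gene (Twist1 and Prrx1) in place of Fap. The share of all genes was 0.973% to 2.33% in the fits with 0, and 5.12% and 3.47% in the other fits named. Against control, Fap stayed at an unadjusted p of at most 0.034 whichever joint was left out, with log2 fold changes from -1.59 to -1.09.

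Of the PDGF receptors, Pdgfrb was the more even. In control joints 1 to 5 it was at 1856, 2617, 3776, 4293 and 2155 normalized counts, and in STING-MSC joints 1 to 5 at 2051, 1804, 2066, 2086 and 1781. The STING-MSC joints lay within 1781 to 2086, at the lower end of the control range and overlapping it. The log2 fold change was -0.52 ± 0.24 (SE, unadjusted limma p = 0.044, FDR = 0.40), with an exact permutation p of 0.056. Its level ranged from 1626 to 3720 in MSC joints and from 1947 to 3151 in TLR3-MSC joints.

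Pdgfra was at 2947, 3117, 4084, 5935 and 2462 normalized counts in control joints 1 to 5 and at 2675, 2898, 2468, 3055 and 1315 in STING-MSC joints 1 to 5. These groups overlapped, and the log2 fold change of -0.57 ± 0.37 (SE) had an unadjusted limma p of 0.15. In MSC joints 1 to 5 it was at 2503, 5806, 2471, 850 and 3695, and in TLR3-MSC joints 1 to 5 at 2895, 4144, 3876, 3103 and 4687. The MSC group held both the second highest and the lowest Pdgfra level of all 20 joints. TLR3-MSC joints were within the range of control joints, with a log2 fold change of 0.06 whose 95% confidence interval ran from -0.72 to 0.84.

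Of the sublining and perivascular markers, Cd248 varied most of the 10 genes from joint to joint, and Thy1 also varied widely. Cd248 was at 2614, 3713, 7421, 8010 and 1825 normalized counts in control joints 1 to 5 and at 2005, 5420, 1751, 364 and 4141 in MSC joints 1 to 5. In TLR3-MSC joints 1 to 5 it was at 2274, 5195, 4490, 3048 and 5873, and in STING-MSC joints 1 to 5 at 2636, 2621, 2268, 2750 and 1205. The highest joint (control replicate 4) held 22.0 times the level of the lowest (MSC replicate 4), and the groups overlapped. The spread within groups was 0.97 on the log2 scale, a value that 4.62% of all genes exceeded. Log2 fold changes against control were -1.04 ± 0.57 (SE) in MSC and -0.87 ± 0.57 (SE) in STING-MSC, with unadjusted limma p values of 0.082 and 0.14.

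Thy1 was at 934, 973, 1619, 2786 and 1110 normalized counts in control joints 1 to 5 and at 805, 2910, 813, 537 and 1429 in MSC joints 1 to 5. In TLR3-MSC joints 1 to 5 it was at 849, 1349, 1137, 782 and 2332, and in STING-MSC joints 1 to 5 at 1024, 1114, 756, 911 and 502. All groups overlapped. In STING-MSC the log2 fold change against control was -0.70 ± 0.41 (SE, unadjusted limma p = 0.10, exact permutation p = 0.095). The mean Thy1 level was 1299 in MSC, 1290 in TLR3-MSC and 861 in STING-MSC joints, which had received CD90-positive cells, and 1484 in control joints.

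The mesenchymal transcription factors lay lower in STING-MSC joints with overlapping ranges. Twist1 was at 463, 619, 1042, 1038 and 418 normalized counts in control joints 1 to 5 and at 454, 396, 429, 434 and 263 in STING-MSC joints 1 to 5. Prrx1 was at 2344, 2512, 3217, 4708 and 2845 in control joints 1 to 5 and at 2036, 2835, 1881, 2245 and 1238 in STING-MSC joints 1 to 5. For Prrx1, 4 of the 5 STING-MSC joints lay below every control joint, and for Twist1, 2 of the 5 did. For Twist1 the log2 fold change was -0.78 ± 0.32 (SE, unadjusted limma p = 0.027, FDR = 0.37, exact permutation p = 0.048). For Prrx1 it was -0.61 ± 0.28 (SE, unadjusted limma p = 0.039, FDR = 0.39, exact permutation p = 0.032). In MSC and TLR3-MSC joints both genes ranged widely, Twist1 from 287 to 1154 and Prrx1 from 1356 to 3885.

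Pi16 and Dpp4, the adventitial fibroblast markers, lay on the other side of control. Pi16 was at 3780, 2215, 1896, 3962 and 2004 normalized counts in control joints 1 to 5 and at 2638, 2810, 5377, 4016 and 3856 in TLR3-MSC joints 1 to 5. The groups overlapped, with 3 control joints below every TLR3-MSC joint. The log2 fold change was 0.46 ± 0.22 (SE, unadjusted limma p = 0.047, FDR = 1.00), and the exact permutation test gave p = 0.17. In STING-MSC joints 1 to 5 Pi16 was at 3096, 3175, 3472, 3842 and 3437, a narrow range, and in MSC joints it ranged from 2613 to 4151. Against control the log2 fold change was 0.37 in STING-MSC and 0.31 in MSC, with unadjusted limma p values of 0.10 and 0.17.

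Dpp4 varied least of the 10 genes. It ranged from 662 to 859 normalized counts in control, from 617 to 1025 in MSC, from 714 to 1026 in TLR3-MSC and from 654 to 1103 in STING-MSC joints. All groups overlapped, and its spread within groups of 0.26 on the log2 scale was that of the median gene. Mean levels were 734 ± 80.2 in control, 823 ± 168 in MSC, 851 ± 135 in TLR3-MSC and 895 ± 182 in STING-MSC (SD, n = 5 each). No comparison of Dpp4 had an unadjusted limma p of at most 0.05. The 95% confidence interval of the log2 fold change of STING-MSC against control ran from -0.06 to 0.59.

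Clic5, the lining marker, had a mean above that of control in all 3 cell-treated groups, with overlapping joints. It was at 9090, 6505, 4268, 5332 and 6037 normalized counts in control joints 1 to 5 and at 7711, 7751, 21051, 11196 and 8084 in TLR3-MSC joints 1 to 5. TLR3-MSC replicate 3 held the highest level of all joints, and a single control joint reached into the TLR3-MSC range. The log2 fold change was 0.76 ± 0.35 (SE, unadjusted limma p = 0.045, FDR = 1.00), with an exact permutation p of 0.032. In STING-MSC joints 1 to 5 it was at 10241, 13059, 8715, 10760 and 4440, with a log2 fold change of 0.56 ± 0.35 (SE, unadjusted limma p = 0.13, exact permutation p = 0.14). In MSC joints it ranged from 3914 to 15699, and the log2 fold change against control was 0.22, with an unadjusted limma p of 0.55. Without MSC replicate 5 it was -0.073. Without control replicate 2, 3 or 5 or TLR3-MSC replicate 3 or 4, neither Clic5 nor Pi16 reached the unadjusted threshold in TLR3-MSC joints. Without control replicate 4 or TLR3-MSC replicate 5, 1 of them reached it, beside 3.21% and 3.81% of all genes. Neither did so without MSC replicate 1 or 3 or STING-MSC replicate 1 or 3, joints that enter this comparison only through the shared estimate of the spread. In the fits with neither, 2.03% to 3.58% of all genes reached the threshold, beside 3.58% with all joints.

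**Figure D2:**
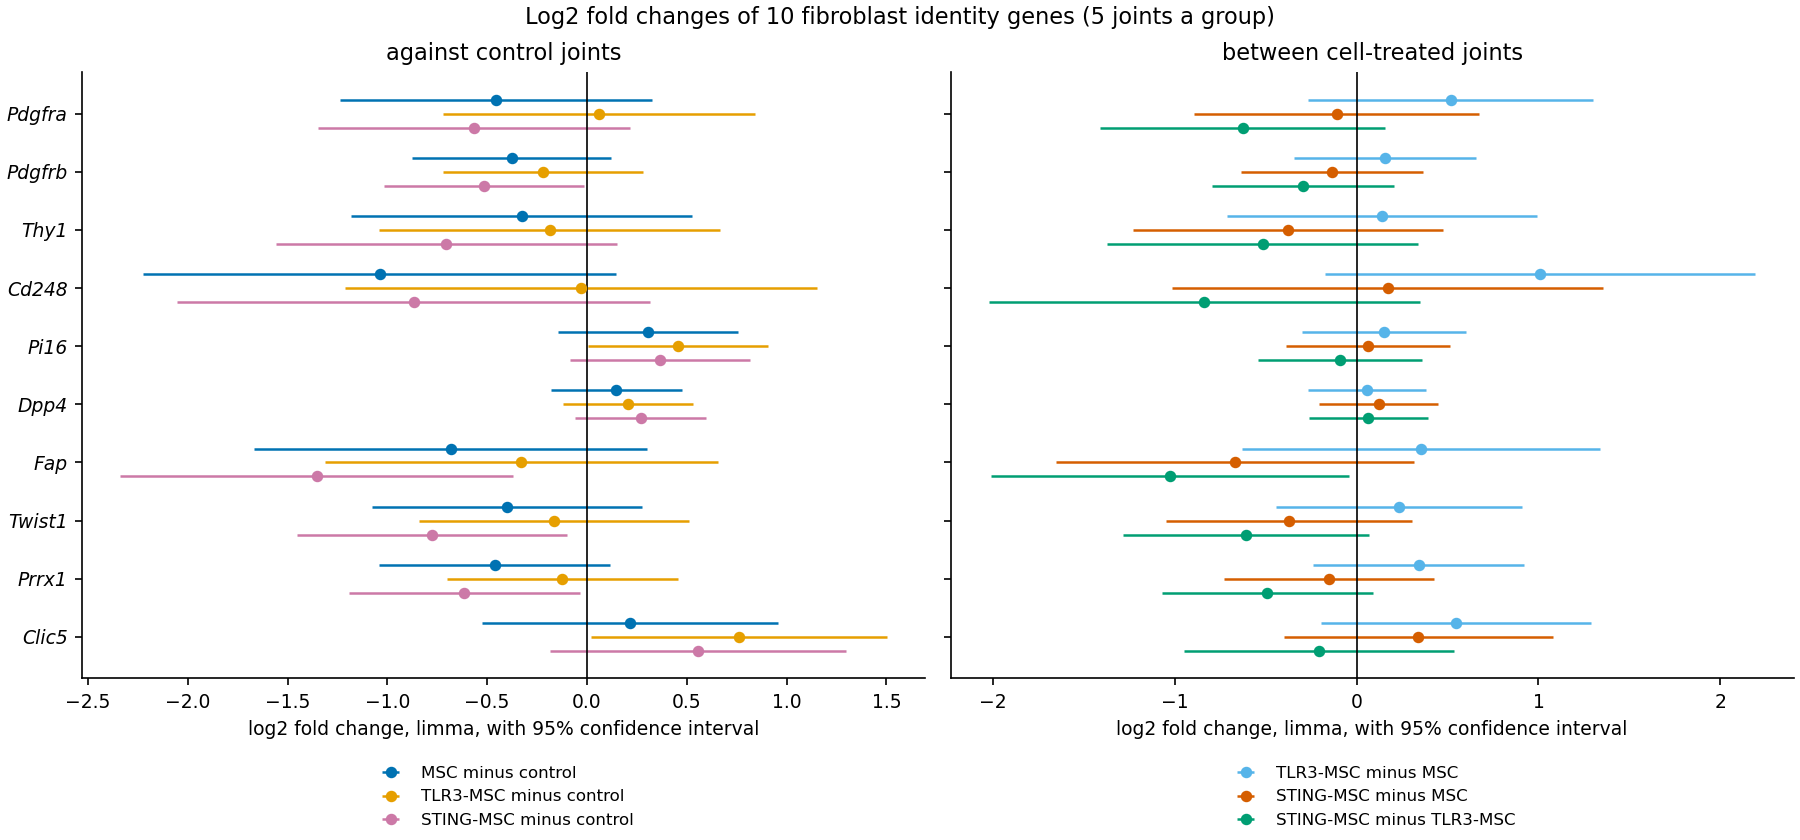
Log2 fold changes of the 10 genes (limma, 5 joints per group) with 95% confidence intervals, for each cell-treated group against control on the left and between cell-treated groups on the right. Against control, the intervals exclude 0 for Fap, Twist1, Prrx1 and Pdgfrb in STING-MSC (-1.35 to -0.52) and for Clic5 (0.76) and Pi16 (0.46) in TLR3-MSC, none of which passed the adjustment over all genes.

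The count of 4 genes lower in STING-MSC than in control joints depended on single joints. It was 1, Fap alone, without control replicate 3, without control replicate 4 or without STING-MSC replicate 5. The first 2 of these were the joints with the highest levels of Fap and Cd248. The share of all genes at the threshold, in either direction, fell as well in these fits: 7.47%, 5.87% and 6.92%, from 12.2% with all joints. The count was 2, Fap and Twist1, without STING-MSC replicate 1 or 3, beside 10.5% and 8.92% of all genes. Leaving out each of the other joints of both groups gave 3 or 4, beside 10.2% to 15.7% of all genes. Genes that lay higher also reached the threshold in some of these fits, Pi16 without control replicate 1 or 4, Dpp4 without STING-MSC replicate 1 and Clic5 without STING-MSC replicate 5. Over all settings the log2 fold changes ranged from -0.94 to -0.61 for Twist1, from -0.74 to -0.45 for Prrx1 and from -0.66 to -0.36 for Pdgfrb.

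On mean log2 values, the order of the 4 groups was the same for Pdgfrb, Thy1, Fap, Twist1 and Prrx1: control highest, then TLR3-MSC, MSC and STING-MSC. For Pdgfra, TLR3-MSC and control changed places, and for Cd248, MSC was the lowest group. These places depended on the scale for 2 genes: the mean normalized count of Thy1 was 1299 in MSC and 1290 in TLR3-MSC, and that of Cd248 was 2736 in MSC and 2296 in STING-MSC. The lowest Cd248 level of all joints, 364 in MSC replicate 4, enters the MSC value. The order for Pi16 and Clic5 was TLR3-MSC, STING-MSC, MSC and control, and for Dpp4 STING-MSC, TLR3-MSC, MSC and control. No pair of neighbours in any of these orders differed beyond the spread between joints: the smallest unadjusted limma p between neighbours was 0.15 (Cd248, TLR3-MSC and STING-MSC). A test for any difference among the 4 groups had an unadjusted p of at most 0.05 for 0 of the 10 genes, beside 6.42% of all genes, and the smallest was 0.054 for Fap.

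Between the cell-treated groups, all 10 genes had a positive log2 fold change in TLR3-MSC against MSC, with a median of 0.29 and a range from 0.06 to 1.01, where 42.6% of all genes had a negative one. For Thy1 the direction was not stable, with -0.01 in edgeR and in DESeq2. For 0 of the 10 was the unadjusted limma p at most 0.05, beside 3.88% of all genes (1.89% higher and 1.99% lower), and the widest interval was that of Cd248 (-0.18 to 2.19). In STING-MSC against MSC, 0 of the 10 reached the threshold as well, beside 4.94% of all genes (2.77% higher and 2.17% lower), and 6 of the 10 lay lower and 4 higher. In STING-MSC against TLR3-MSC, 9 of the 10 lay lower, with a median log2 fold change of -0.50, where 44.7% of all genes lay lower. There the exact permutation test gave p = 0.024 for Pdgfra and Twist1, p = 0.032 for Fap and p = 0.048 for Cd248, of which Fap alone also had an unadjusted limma p of at most 0.05. By that exact test 4 of the 10 genes were lower at p of at most 0.05, beside 6.03% of all genes. These 4 genes also correlated with each other (Pearson r from 0.83 to 0.96, group means subtracted), so they are not independent.

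The results that involve the MSC group turned on single joints. Without MSC replicate 2, 6 of the 10 genes lay lower in MSC than in control at an unadjusted limma p of at most 0.05. Beside them, 16.7% of all genes reached that threshold in either direction. Without control replicate 1 or 5 or MSC replicate 5, 1 of the 10 lay lower at the threshold (Pdgfrb, Cd248 and Cd248). Without control replicate 4, 1 lay higher, Pi16. Of all genes, 1664, 1131, 1926 and 852 reached the threshold in these fits, in that order, in place of 1265 with all joints. Between TLR3-MSC and MSC the count was 2 without MSC replicate 2 or 5, beside 9.98% and 6.13% of all genes, in place of 3.88%. Between STING-MSC and MSC it was 1 without MSC replicate 4, beside 6.55% of all genes, in place of 4.94%. The test for any difference among the groups gave 4 genes without MSC replicate 2 and 1 without control replicate 1, 4 or 5, MSC replicate 4 or 5 or TLR3-MSC replicate 4. Of all genes, 1653 reached the threshold in this test without MSC replicate 2, in place of 950 with all joints. In the fits with 1 gene, 622 to 1307 of all genes did.

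The spread within groups was wide for most of these genes, and 7 of the 10 varied together. After the group means were subtracted, the joints that were high in one of Pdgfra, Pdgfrb, Thy1, Cd248, Fap, Twist1 and Prrx1 were high in the others. Control replicate 4 was the highest of its group for 7 of the 10 genes and MSC replicate 2 for 8, while MSC replicate 4 and STING-MSC replicate 5 were at the bottom. Pearson correlations over the 20 joints had an adjusted p of at most 0.05 (100000 permutations within groups, Benjamini-Hochberg over 45 pairs) for 20 of the 45 pairs, and all 20 were among these 7 genes. The set of 7 was recognised from these values and is given as a description.

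**Figure D3:**
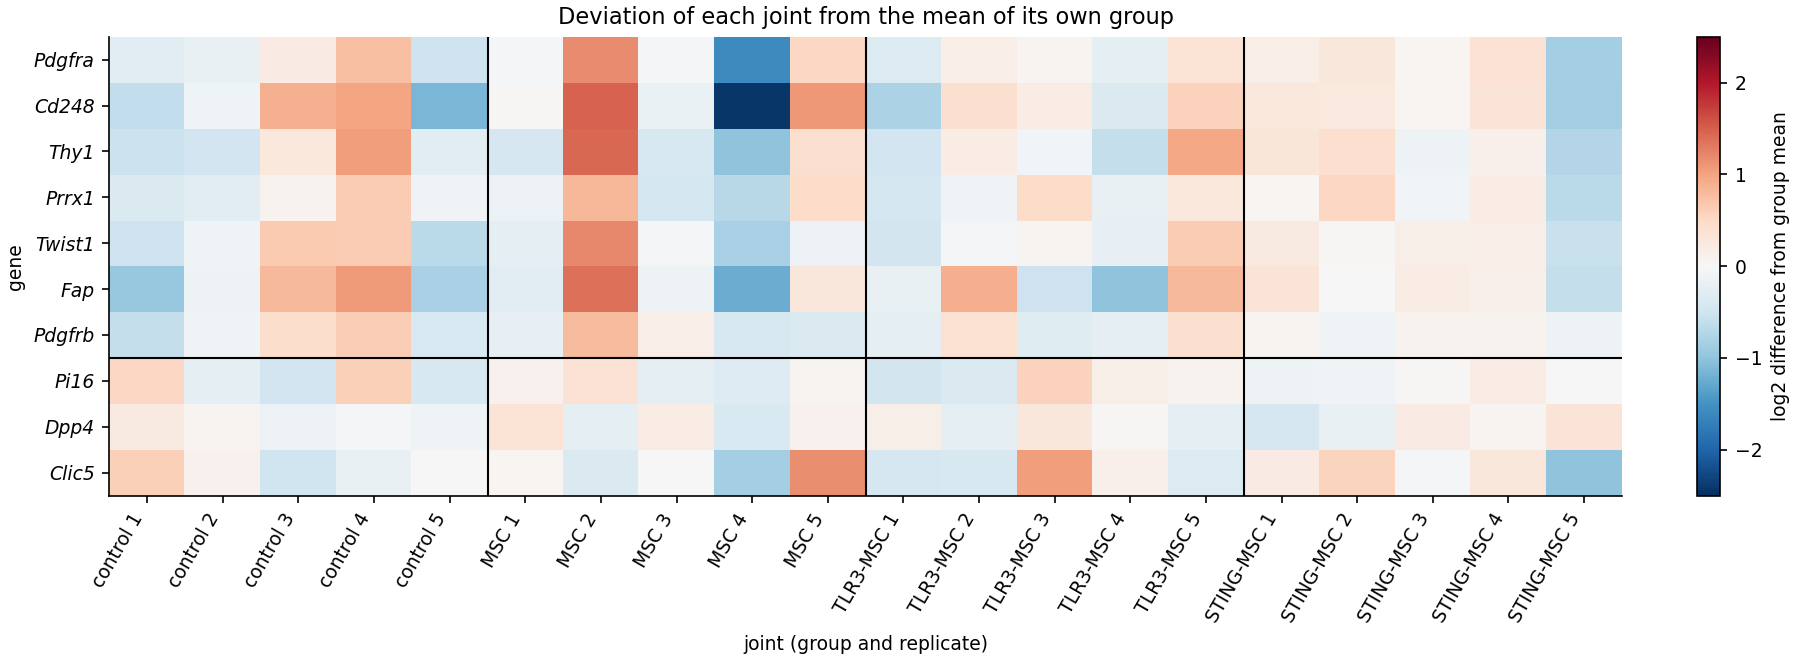
Log2 difference of each joint from the mean of its own group for the 10 genes (rows) in the 20 joints (columns), with vertical lines between groups and red for joints above the group mean. MSC replicate 2 and control replicate 4 are red and MSC replicate 4 and STING-MSC replicate 5 blue across the 7 upper genes, while Pi16, Dpp4 and Clic5 below the horizontal line differ from these in part, with MSC replicate 4 below its group mean for all 10 genes.

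Among these 7 genes the 21 correlations ranged from 0.51 to 0.96 with a median of 0.86. The closest pair was Pdgfra and Cd248 (Pearson r = 0.96, Spearman rho = 0.97, permutation p = 1e-05 for both, the smallest that 100000 permutations can give). Without the 2 joints with the most extreme Pdgfra levels, MSC replicates 2 and 4, r was 0.92. Fap and Pdgfrb followed with r = 0.90. The single pair that missed the threshold was Pdgfrb and Prrx1 (r = 0.51, rho = 0.45, permutation p = 0.045 and 0.078, adjusted p = 0.089 and 0.14), with r = 0.14 without control replicate 4 and MSC replicate 2. In each of the 4 groups taken alone all 21 correlations were positive, with medians of 0.91 in control, 0.91 in MSC, 0.75 in TLR3-MSC and 0.88 in STING-MSC over 5 joints.

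Pi16, Dpp4 and Clic5 stood outside that pattern. Of the 24 pairs that include at least 1 of them, 0 had an adjusted p of at most 0.05. The correlations of these 3 with the other 7 ranged from -0.41 (Thy1 and Dpp4) to 0.49 (Prrx1 and Pi16), with a median of 0.066. Among themselves they correlated at 0.28 to 0.43. The label of synovial fibroblast identity thus covered genes whose RNA did not vary as one group in these whole joints. The values of a joint share a library and a size factor, and the correlations describe RNA of the whole tissue.

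**Figure D4:**
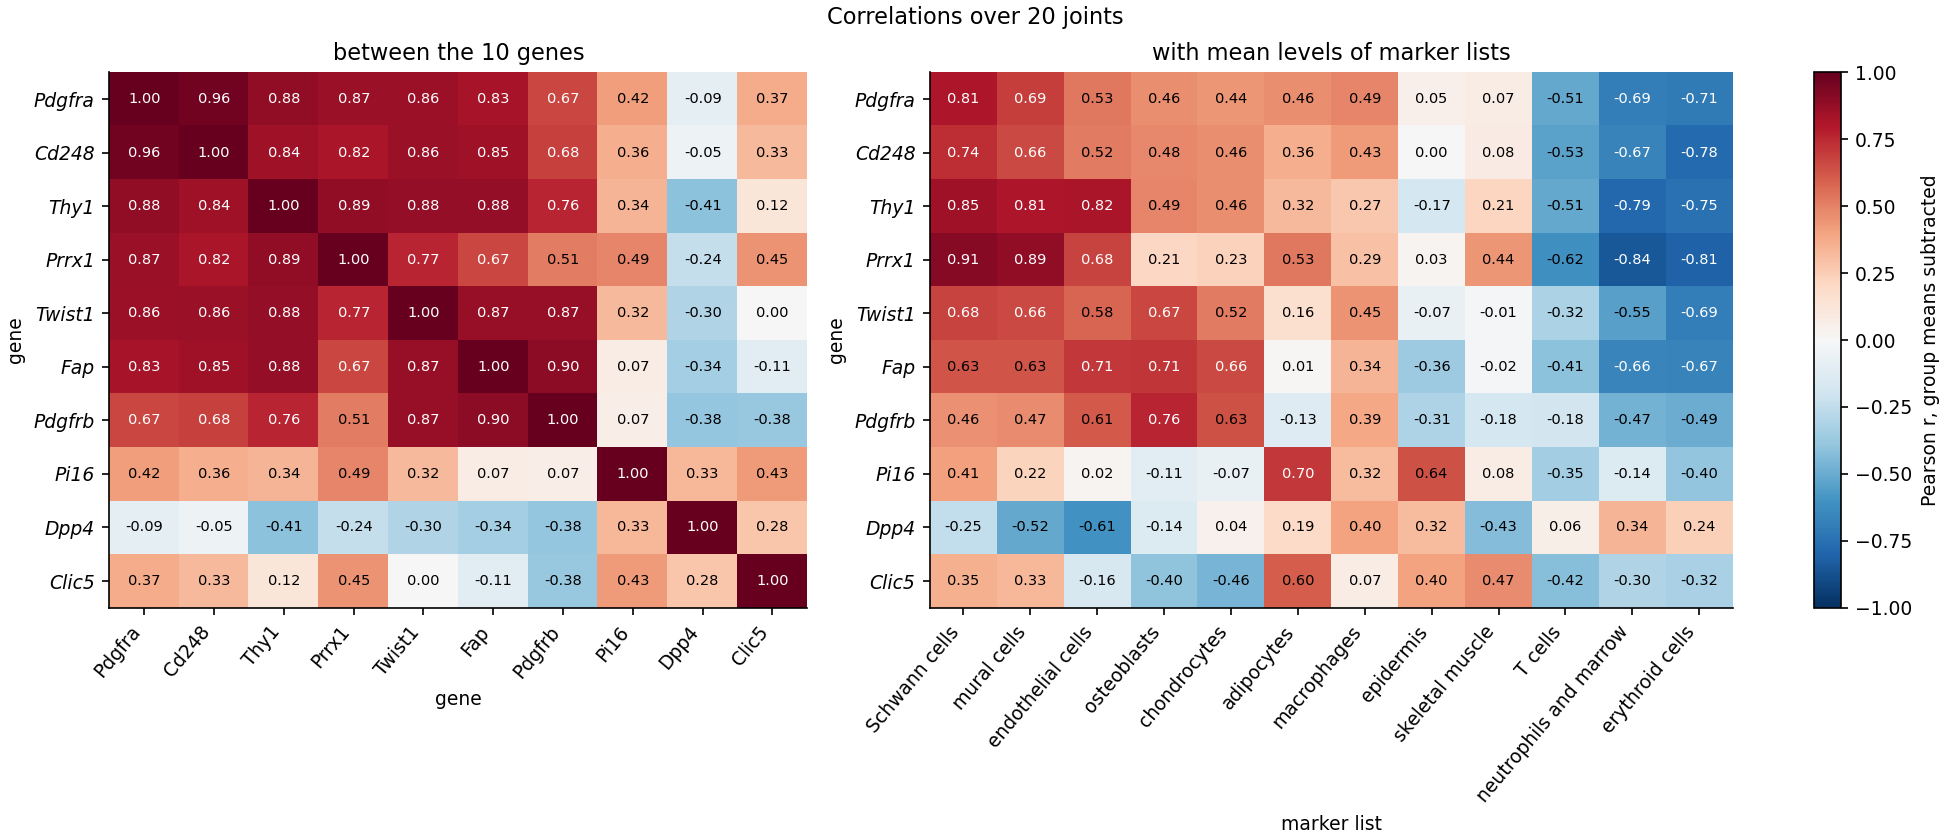
Pearson correlations over 20 joints after subtraction of group means, between the 10 genes on the left and between each gene and the mean level of 12 lists of marker genes on the right, with red for positive and blue for negative values. The block of 7 genes from Pdgfra to Pdgfrb has r from 0.51 to 0.96, and the same genes have positive values with the Schwann and mural cell lists and negative values with the neutrophil and erythroid lists.

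For each of the 10 genes, the 2 genes with the highest correlation over the 20 joints are named. For Pdgfra they were Pam, an enzyme that amidates peptides, and the matrix gene Ecm1 (both r = 0.99). For Pdgfrb they were the collagen cross-linking enzyme Lox and Hhat (both r = 0.96), and for Thy1 the transcription factor Zeb1 and the mechanosensitive channel Piezo2 (both r = 0.97). Cd248 was followed by Colec12 and Ankrd29 (both r = 0.99), and Fap by Zfp469 and the fibrillar collagen gene Col5a2 (both r = 0.98). Twist1 was followed by Fkbp7 (r = 0.98) and Bcar1 (r = 0.97), and Prrx1 by Ccn3 (r = 0.98) and the latent TGF-β binding protein gene Ltbp4 (r = 0.97).

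The remaining 3 genes had other and looser neighbours. Pi16 was followed by the connective-tissue mast cell protease Mcpt4 and the chemokine Cxcl13 (both r = 0.83), Dpp4 by Tmprss3 (r = 0.79) and Cmah (r = 0.77), and Clic5 by Rtn1 (r = 0.89) and Btc, which encodes betacellulin (r = 0.88). A correlation of at least 0.8 was shared with 1592 genes by Thy1 and with 629 to 1426 by the other 6 of the 7. It was shared with 8 genes by Pi16, 0 by Dpp4 and 27 by Clic5.

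Set against lists of related fibroblast genes, the lining marker Clic5 followed the lining list less closely than Pdgfra did. The correlation with Prg4, the gene for lubricin and the defining product of the lining, was 0.98 for Pdgfra and 0.95 for Cd248 but 0.45 for Clic5 over the 20 joints. The median correlation with the 8 lining genes was 0.94 for Pdgfra and 0.46 for Clic5. For Clic5 this was its highest median among the lists, barely above that with the Pi16 and Dpp4 population genes (0.46). Of the 8 lining genes, Clic5 was closest to Tspan15 (r = 0.81), a gene named after its values were seen. Pi16 had a median correlation of 0.58 with 12 genes of the Pi16 and Dpp4 fibroblast population, closest to Wnt2 (r = 0.82), and Dpp4 one of 0.07, closest to Anxa3 (r = 0.61). Fap had its highest median with the myofibroblast genes (0.91), Thy1 with the sublining genes (0.93) and Pdgfrb with the myofibroblast genes (0.85).

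Markers of other cell types moved with these genes, and their part in the differences was not tested. Of 120 relations between the 10 genes and 12 marker lists, the erythroid list had 6 at an adjusted p of at most 0.05, all negative (100000 permutations within groups), and the list for neutrophils and marrow had 5, all negative. The lists for mural and Schwann cells had 6 each, all positive. Prrx1 had the strongest relations: Pearson r was -0.84 with neutrophils and marrow (Spearman rho = -0.81), -0.81 with erythroid cells (rho = -0.82), 0.89 with mural cells (rho = 0.90) and 0.91 with Schwann cells (rho = 0.88). Without the 2 joints farthest from the median of the marker level, these r values were -0.80, -0.86, 0.87 and 0.85. The adjusted permutation p values of these 4 relations were from 0.0012 to 0.0032 for both measures.

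The marker lists differed in how they fell on the individual genes. The endothelial list was related to Thy1 (r = 0.82), Fap (r = 0.71) and Prrx1 (r = 0.68) and, negatively, to Dpp4 (r = -0.61). The osteoblast list was related to Pdgfrb (r = 0.76), Fap (r = 0.71) and Twist1 (r = 0.67), and the chondrocyte list to Fap (r = 0.66) and Pdgfrb (r = 0.63). The adipocyte list was related to Pi16 (r = 0.70) and Clic5 (r = 0.60). For the lists of macrophages, T cells, skeletal muscle and epidermis, 0 of the 10 genes had an adjusted p of at most 0.05 by Pearson correlation. By Spearman correlation the epidermis list was related to Pi16 (rho = 0.76, adjusted permutation p = 0.017) and Clic5 (rho = 0.58, adjusted permutation p = 0.043). The adjusted permutation p values of the 11 relations named here with their r were from 0.0032 to 0.041.

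The same lists also differed between STING-MSC and control joints. In that comparison 6.54% of all genes lay higher and 5.69% lower at an unadjusted limma p of at most 0.05. The 8 markers of neutrophils and marrow lay higher in STING-MSC for 8 of 8, 6 of them at an unadjusted limma p of at most 0.05, and 0 passed the FDR threshold. Their summed level ranged from 387204 to 692276 normalized counts in control and from 553273 to 860309 in STING-MSC joints, with medians of 477297 and 738187. In MSC joints the median was 800218, and 8 of 8 markers lay higher than in control. Of these, 5 were at the unadjusted threshold, beside 5.64% of all genes higher. Endothelial markers lay lower in STING-MSC than in control joints for 7 of 8, 5 of them at the unadjusted threshold, with summed levels from 12892 to 17696 against 15734 to 21936. Mural cell markers lay lower for 7 of 8, 1 of them at the threshold, with summed levels from 42609 to 105831 against 59599 to 85968. The mural sum, whose list includes Des, ran with the skeletal muscle sum. STING-MSC replicate 2 held the highest of both (105831 and 3250130 normalized counts), and MSC replicate 1 was low in both (37513 and 790450). The mural sum is therefore not read as a level of mural cells alone. None of the neutrophil, endothelial and mural lists had a marker at 0 in any joint, apart from 1 value of 1 mural marker in STING-MSC.

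Adipocyte markers, to which Pi16 and Clic5 were related, lay higher than control for 8 of 8 in each cell-treated group. At the unadjusted threshold there were 2 of them in TLR3-MSC, 0 in STING-MSC and 0 in MSC, beside 2.68%, 6.54% and 5.64% of all genes higher. Their summed level ranged from 9147 to 31809 normalized counts in control (median 17036) and from 12543 to 31302 in MSC (median 24258). In TLR3-MSC joints it ranged from 20626 to 39121 (median 27523) and in STING-MSC joints from 17228 to 35501 (median 24919). Erythroid markers lay higher in STING-MSC than in control joints for 8 of 8, with 0 at the threshold. Schwann cell markers lay lower for 6 of 8, 3 of them at the threshold, beside 5.69% of all genes lower. Their summed levels ranged from 5545 to 7032 normalized counts, against 5836 to 8348 in control. Epidermis markers lay lower for 8 of 8, with 0 at the threshold. Their summed level was low, from 553 to 604 normalized counts in STING-MSC joints. Control replicate 1 was at 8543 and the other control joints were between 584 and 874. Of the single marker values, 10 were at 0 in STING-MSC and 7 in control. The part of these lists in the differences of the 10 genes was not tested.

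Other fibroblast genes differed in the same direction between STING-MSC and control joints, and none passed the FDR threshold. Of 64 listed genes 60 were in the table, and 17 lay lower and 3 higher at an unadjusted limma p of at most 0.05, beside 5.69% of all genes lower and 6.54% higher. The lists were drawn up with earlier results of these data known. Among 10 sublining genes 5 lay lower, with log2 fold changes of -1.71 for Lum, which encodes the proteoglycan lumican, and -1.61 for Col15a1. Lum ranged from 2020 to 5302 normalized counts in STING-MSC and from 6388 to 23902 in control joints, without overlap, beside 1.24% of all genes so separated downwards. Among 7 myofibroblast genes 4 lay lower, with -1.62 for Postn, which encodes the matricellular protein periostin, -2.05 for the fibrillar collagen Col3a1 and -2.29 for Lrrc15. Postn also lay lower than control in MSC (-1.44) and TLR3-MSC (-1.12) joints, with unadjusted limma p values of 0.0096 and 0.037.

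Among 8 lining genes 1 lay lower at that threshold, the collagen gene Col22a1 (log2 fold change -1.15), beside 5.69% of all genes lower. Prg4 ranged from 40339 to 196213 normalized counts in STING-MSC and from 150984 to 542072 in control joints, with a log2 fold change of -1.16 and an unadjusted limma p of 0.098. Among 11 mesenchymal transcription factors 4 lay lower, among them Snai1, a regulator of epithelial-mesenchymal transition. It ranged from 135 to 207 normalized counts in STING-MSC and from 214 to 1029 in control joints, without overlap. Such a full separation downwards was seen for 1.24% of all genes. Of the 4 PDGF ligand genes 2 lay lower, Pdgfb by -0.22 and Pdgfc by -0.95 on the log2 scale.

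Genes of the Pi16 and Dpp4 fibroblast population went both ways. Of 12, 3 lay higher and 1 lower in STING-MSC against control at an unadjusted limma p of at most 0.05, and 4 lay higher and 0 lower in TLR3-MSC. Of all genes, 6.54% lay higher and 5.69% lower in STING-MSC, and 2.68% higher and 0.906% lower in TLR3-MSC. Anxa3, an annexin, ranged from 2051 to 3311 normalized counts in control, from 2651 to 3735 in MSC, from 2913 to 3949 in TLR3-MSC and from 3135 to 3764 in STING-MSC joints. Its log2 fold changes against control were 0.35, 0.41 and 0.40, with unadjusted limma p values of 0.0068, 0.0022 and 0.0029. Of 5 other members of the DPP4 and FAP peptidase family, 0 reached the threshold in any comparison with control, and of 3 other CLIC genes 0 did.

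The balance between the 10 genes within a joint also varied. The ratio of Fap to Pdgfrb normalized counts was 1.33, 1.69, 2.24, 2.32 and 1.28 in control joints 1 to 5. In STING-MSC joints 1 to 5 it was 1.14, 1.03, 1.03, 0.981 and 0.693. All STING-MSC joints lay below all control joints in this ratio, which was computed after the values were seen and is given without a test. In MSC joints it ranged from 0.774 to 2.16 and in TLR3-MSC joints from 0.934 to 2.30. The other ratios computed for Fap overlapped between STING-MSC and control joints. Fap to Pdgfra ranged from 0.640 to 0.938 in STING-MSC and from 0.840 to 2.07 in control, and Fap to Pi16 from 0.359 to 0.755 and from 0.655 to 4.46. The ratio of Cd248 to Pdgfra was nearly constant in STING-MSC joints, from 0.900 to 0.985, and ranged from 0.741 to 1.82 in control, from 0.429 to 1.12 in MSC and from 0.785 to 1.25 in TLR3-MSC joints.

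In the coordinates of the deposited table (GRCm39), Fap (chr2:62331287-62404420, minus strand) and Dpp4 (chr2:62160417-62242576, minus strand) lie near each other, with Gcg between them in the annotation. The correlation of their levels over the joints did not reach the threshold (r = -0.34, rho = -0.42, permutation p = 0.16 and 0.079, adjusted p = 0.23 and 0.14). Pdgfra, Pi16, Dpp4, Prrx1 and Clic5 overlap non-coding genes on the other strand in the annotation. Whether reads were counted by strand is not given in the sources used here, so reads of such a pair cannot be assigned with certainty.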

How the data were processed

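Polyadenylated RNA of 20 knee joints, 5 per group, had been sequenced. According to the submitters' processing notes and the methods, the authors aligned reads to GRCm39 with STAR 2.7.3a and counted them per gene with HT-seq on the Ensembl annotation in Partek Flow. A filter on low counts and a strand setting are not given in the sources used here. The authors deposited these counts divided by a median-ratio size factor per joint, which makes the deposited unit a normalized signal. Groups and replicate numbers came from the sample titles.

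Values below 1000 were whole multiples of the step of 1 read in each joint (tolerance 0.1 reads), which gave the recovered reads. The main test was limma-trend (limma 3.58.1, R 4.3.3) fitted to log2(normalized count + 1) in all 20 joints without a block, so fold changes are on that scale. It was used in place of DESeq2, which the authors named, because the values are normalized. No gene was filtered out by a minimum, the lowest mean of a gene being 9.40. Single genes were also compared with a two-sided exact permutation test over 5 against 5 joints. Correlations used residuals from group means and 100000 permutations within groups.

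The settings varied were the pseudocount (0.5 or 5), a minimum mean of 20, quantile normalization, only the 2 groups compared, the replicate number as a block, edgeR 4.0.16 and DESeq2 1.42.0 on the recovered reads, and each joint left out in turn. The tests were tested on simulated data. The genes and lists were chosen with earlier results of these data known. Named genes were the 10 genes, up to 3 genes of each list of fibroblast genes with the smallest p among the 4 groups, and the 2 genes most correlated with each of the 10. Listed genes outside the table (Twist2, Dpp10, Clic6, Tagln and Trac) were not analysed here. Promoter windows were read from GRCm39 for the canonical transcripts of GENCODE vM39. The p-values measure the spread between joints of different mice.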

Additional observations from a re-analysis of the deposited data

Results flagged for a closer look

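In STING-MSC joints, replicate 5 lay far below the other 4 for 3 of the 10 genes. This was by Dixon's test at the 95% level on the log2 scale. The gap over the range was 0.747 for Pdgfra, 0.766 for Cd248 and 0.752 for Twist1, against a critical value of 0.71. The levels below are normalized counts, and the test values do not apply to that scale. Pdgfra was at 1320 normalized counts in replicate 5 and between 2470 and 3050 in the others. Cd248 was at 1200 against 2270 to 2750, and Twist1 at 263 against 396 to 454. Of 40 combinations of gene and group that were examined these 3 stood out, where chance gives about 1 in 20, and the 3 genes are strongly correlated with each other. Without this joint, 1 of the 10 genes, Fap, lay lower in STING-MSC than in control at an unadjusted limma p of at most 0.05, in place of 4, and 1, Clic5, lay higher. The share of all genes at that threshold, in either direction, was 6.92% without it, in place of 12.2%.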

How the results depend on the processing

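No gene of the 10 passed the FDR threshold in any comparison under any alternative or without any joint. Pseudocounts, the minimum mean and quantile normalization left all 60 comparisons of single genes in their direction and on their side of an unadjusted p of 0.05.

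The counts below are of genes in either direction. The count at that threshold in TLR3-MSC against control, 2, was 1 with edgeR (beside 3.81% of all genes) and DESeq2 (4.25%). It was also 1 with only the 2 groups compared (3.86%) and 0 with the replicate block (3.2%). In STING-MSC against TLR3-MSC the count, 1, was 0 with the block, beside 1.97% of all genes. It was 5 with only the 2 groups compared, where 1258 of all genes reached the threshold in place of 380. Among the 4 groups the count, 0, was 1 with quantile normalization, edgeR and DESeq2, beside 931, 1088 and 1438 of all genes. In STING-MSC against control, 4, it was 3 with the block, 5 with DESeq2 (Cd248 added) and 5 with only the 2 groups compared (Thy1 added). Of all genes, 1597, 2242 and 2296 reached the threshold in these settings, in place of 1808. Same-numbered joints are different mice, and 11 of 30 same-numbered pairs of joints correlated above 0.1 (-0.66 to 0.46, median -0.02), so the numbers do not pair the joints. The cause of these changes was not tested.

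Without 1 joint of the groups compared each, the counts ranged from 0 to 6 in MSC against control, 0 to 2 in TLR3-MSC against control, 1 to 5 in STING-MSC against control, 0 to 1 in STING-MSC against MSC, 0 to 2 in TLR3-MSC against MSC, 0 to 1 in STING-MSC against TLR3-MSC, 0 to 4 among the 4 groups and 19 to 27 for correlated pairs. In these fits the share of all genes at the threshold ran from 5.76% to 16.7% in MSC against control. In STING-MSC against control it ran from 5.87% to 15.7%, and in TLR3-MSC against control from 2.03% to 5.48%. It ran from 3.91% to 6.66% in STING-MSC against MSC and from 2.45% to 9.98% in TLR3-MSC against MSC. In STING-MSC against TLR3-MSC it ran from 0.973% to 5.12%. Among the 4 groups, 622 to 1653 of all genes reached the threshold.

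Log2 fold changes that turned sign were small. For Cd248 in STING-MSC against MSC, 0.17, it was -0.28 with edgeR and -0.25 with DESeq2. For Thy1 in TLR3-MSC against MSC, 0.14, it was -0.014 with edgeR and -0.010 with DESeq2. Without 1 joint each, ranges across 0 were found in TLR3-MSC against control for Pdgfra (-0.069 to 0.25), Thy1 (-0.43 to 0.073), Cd248 (-0.31 to 0.22) and Prrx1 (-0.24 to 0.037), and in MSC against control for Clic5 (-0.073 to 0.43). In STING-MSC against MSC they were found for Pdgfra (-0.51 to 0.18), Pdgfrb (-0.24 to 0.060), Cd248 (-0.44 to 0.54), Pi16 (-0.017 to 0.15) and Prrx1 (-0.32 to 0.055). In TLR3-MSC against MSC they were found for Thy1 (-0.11 to 0.50) and Dpp4 (-0.040 to 0.14), and in STING-MSC against TLR3-MSC for Pi16 (-0.20 to 0.053), Dpp4 (-0.018 to 0.17) and Clic5 (-0.34 to 0.053).

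The share of lower genes among all genes at the unadjusted threshold moved with scaling, from 34.0% to 20.6% with quantile normalization in MSC against control, 43.9% to 55.9% in STING-MSC against MSC, 51.4% to 72.5% in TLR3-MSC against MSC and 69.5% to 59.4% in STING-MSC against TLR3-MSC. In STING-MSC against control it was 46.5%, and 57.9% with edgeR, which also gave 71.7% in STING-MSC against MSC and 88.8% in STING-MSC against TLR3-MSC. The median of all genes moved by less than 0.1 on the log2 scale.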
